A study of Mus musculus with 14 samples.

Results

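The cell cycle and DNA replication genes described here are 50 listed genes, matched by gene symbol in the deposited gene table. All 50 were found, 1 row each, among 32289 genes. They were grouped by role into 28 mitosis genes, 16 replication genes (12 for origin licensing and firing, 4 for the replication clamp and nucleotide supply) and 6 G1/S regulators and proliferation transcription factors.

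The samples are bulk RNA-seq libraries of ascending aorta from C57BL/6 mice, taken in week 6. Mice received PBS (n = 3 libraries), BAPN (β-aminopropionitrile, which blocks lysyl oxidase and so the cross-linking of elastin and collagen fibres, n = 4), BAPN with Cilengitide (a cyclic RGD peptide, n = 3) or BAPN with SB273005 (n = 4). The labels name both Cilengitide and SB273005 as inhibitors of integrin αV. The design asks how the BAPN aorta differs from the PBS aorta, and whether either inhibitor changes it. The labels give the same strain, tissue and time for all 4 groups, and every group but PBS carries BAPN. The labels give no dose, age, sex, feeding start or state of each aorta. They also do not say whether each library came from a separate animal, so p-values measure the spread between these libraries, which may be partly technical.

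A dividing cell licenses its origins with the MCM helicase in G1, copies its DNA in S phase with the clamp Pcna and a supply of nucleotides, and then builds a spindle and divides. Transcription runs in waves. E2F factors drive genes of G1/S and DNA synthesis, while the DREAM and MuvB complexes with B-Myb and Foxm1 act on genes of G2 and mitosis through CHR elements (cell cycle genes homology region) and CCAAT boxes. The wall of the adult aorta is largely quiescent. In bulk tissue, fewer dividing cells and less RNA per cell cannot be told apart.

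The promoters of the members were compared first, because the mitosis and replication genes separated in the expression data. RefSeq (GRCm38.p6) windows of 300 bases, 250 before and 50 from the start site, were matched for 41 of the 50 members (44 promoters). Motifs were searched on both strands: TTTGAA or TTTAAA for CHR, CCAAT for the CCAAT box, and TTTCCCGC, TTTCGCGC, TTTGCCGC or TTTGGCGC for E2F. The stretches shown run from 120 bases before the start to 30 bases from it, on the gene's strand, with motif matches in capitals. Prc1, Cdk1 and Top2a stand for mitosis genes, whose fitted levels lay above PBS. Mcm6, Mcm3 and Mcm7 stand for helicase genes, whose levels lay near PBS. E2f1 is shown because it passed the test with a window that holds no match.
Prc1 (chr7:80294331-80294480, plus strand): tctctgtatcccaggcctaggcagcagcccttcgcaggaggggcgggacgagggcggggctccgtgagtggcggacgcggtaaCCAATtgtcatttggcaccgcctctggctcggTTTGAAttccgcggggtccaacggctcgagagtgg
Cdk1 (chr10:69352883-69353032, minus strand): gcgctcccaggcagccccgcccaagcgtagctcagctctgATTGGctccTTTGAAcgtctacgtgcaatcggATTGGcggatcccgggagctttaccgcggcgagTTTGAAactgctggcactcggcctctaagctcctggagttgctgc
Top2a (chr11:99024160-99024309, minus strand): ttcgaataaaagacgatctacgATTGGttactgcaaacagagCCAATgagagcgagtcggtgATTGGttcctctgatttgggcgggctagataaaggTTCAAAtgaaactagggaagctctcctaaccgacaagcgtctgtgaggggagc
Mcm6 (chr1:128359676-128359825, minus strand): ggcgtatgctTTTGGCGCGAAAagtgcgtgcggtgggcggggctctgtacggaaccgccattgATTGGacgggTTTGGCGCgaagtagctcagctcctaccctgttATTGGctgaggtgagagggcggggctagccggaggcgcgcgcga
Mcm3 (chr1:20820283-20820432, minus strand): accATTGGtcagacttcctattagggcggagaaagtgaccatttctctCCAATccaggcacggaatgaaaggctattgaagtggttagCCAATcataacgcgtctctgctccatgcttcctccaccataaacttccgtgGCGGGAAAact
Mcm7 (chr5:138171854-138172003, minus strand): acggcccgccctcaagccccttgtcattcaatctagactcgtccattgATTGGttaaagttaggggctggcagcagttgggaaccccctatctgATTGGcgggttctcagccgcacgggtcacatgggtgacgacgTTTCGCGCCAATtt
E2f1 (chr2:154569397-154569546, minus strand): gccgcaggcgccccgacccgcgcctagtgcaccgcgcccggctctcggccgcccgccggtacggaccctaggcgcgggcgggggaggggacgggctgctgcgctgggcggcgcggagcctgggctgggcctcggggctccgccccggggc
These stretches differ in their matches. Prc1 shows 1 CHR and 1 CCAAT match, Cdk1 shows 2 and 2, and Top2a shows 1 and 3. Mcm6, Mcm3 and Mcm7 hold no CHR match, 2, 3 and 3 CCAAT matches, and 3, 1 and 1 E2F matches. In Mcm6, 2 of the E2F matches overlap each other, and in Mcm7 the E2F match overlaps a CCAAT match. A further RefSeq promoter of Mcm7, not shown, holds 1 CCAAT match and no CHR or E2F match. The Mcm7 and E2f1 stretches lie inside the genes' spans in the deposited table, since RefSeq places the starts elsewhere. For E2f1 the whole searched window lies there, so the bases before the deposited start were not searched.

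Over the full windows, 22 of 25 promoters of mitosis genes held a CHR match (88%), against 4 of 14 promoters of replication genes (28.6%) and 27.6% of all 32851 promoters in the table. CCAAT matches were frequent in both classes, in 20 of 25 (80%) and 11 of 14 (78.6%), against 37.4% of all promoters. E2F matches were in 1 of 25 mitosis promoters (4%) and 6 of 14 replication promoters (42.9%), against 2.26% of all promoters. The 5 promoters of the G1/S class held 3 CHR, 3 CCAAT and 1 E2F match-bearing windows. A match describes letters in a window and was not tested as a site.

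**Figure D1:**
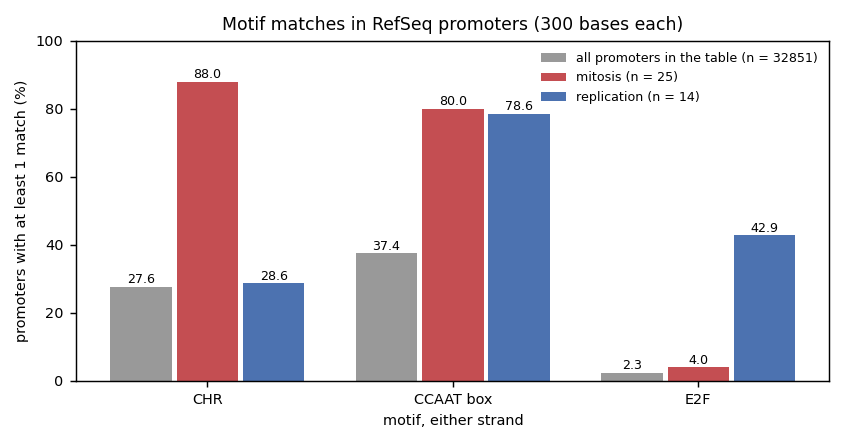
Share of RefSeq promoters (percent, y axis) with at least 1 match to each motif (x axis), for all promoters and the promoters of mitosis and replication genes. CHR matches were in 88% of mitosis and 28.6% of replication promoters, and E2F matches in 4% and 42.9%.

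Some libraries stood apart, and these values bear on the results that follow. Total estimated counts were 49027900 to 72584900 per library. PBS replicate 1 had a summed level of 6 B and plasma cell markers of 549 CPM (counts scaled to library size after TMM normalisation), against 4.27 and 4.40 in the other PBS libraries and 2.21 to 25.7 elsewhere. Among these 6, Mzb1 had 0 counts in 1 library and the other 5 were above 0 in all. Its T cell marker sum, 27.1 CPM, was also the highest. SB273005 replicate 2 had the highest mitochondrial share of counts, 17.9%, and the lowest sum of 6 smooth muscle markers, 3434 CPM, against 13326 to 32153 CPM in the rest. H2-Ea, a class II gene, had 0 counts in PBS replicates 1 to 3 and SB273005 replicates 1 to 3, and 83 to 130 counts in the other 8 libraries. The labels name no substrain or batch for these sets of libraries, and the cause of the split was not tested. That split and the group cannot be told apart for BAPN or Cilengitide against PBS. Cilengitide against BAPN lies within 1 side of it. The split runs through the SB273005 group, so that replicates 1 to 3 share a side with PBS, and replicate 4 with BAPN and Cilengitide. Counts of calls against PBS are given below with and without PBS replicate 1. For SB273005 against PBS they are also given without SB273005 replicate 2 or 4. Values of single genes include all libraries unless stated.

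All members were low but measured. By deposited FPKM (fragments scaled to transcript length and library size, so that genes can be compared), 20 members had a mean under 1, 28 had 1 to 5, and 2 had more. Those 2 were Pcna, the sliding clamp of DNA polymerase, at 14 FPKM, and Mcm6, a subunit of the replicative helicase, at 13.3 FPKM. The helicase genes Mcm7, Mcm3 and Mcm4 followed at 3.93, 3.80 and 3.63 FPKM. Cdc20, the activator of the anaphase ubiquitin ligase, led the mitosis genes at 3.33 FPKM, and the checkpoint kinase Ttk was lowest of all members at 0.162 FPKM. Only Ttk had a count of 0, in SB273005 replicate 3, which allows up to 3 counts or 0.0605 CPM there, for counting error only. The spread across libraries also differed by class. The highest CPM was 30.3 times the lowest for Cdk1, 15.3 times for Mki67 and 15.6 times for Top2a, but 2.73 times for Mcm6, 1.59 times for Pcna and 1.55 times for Mcm7.

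**Figure D2:**
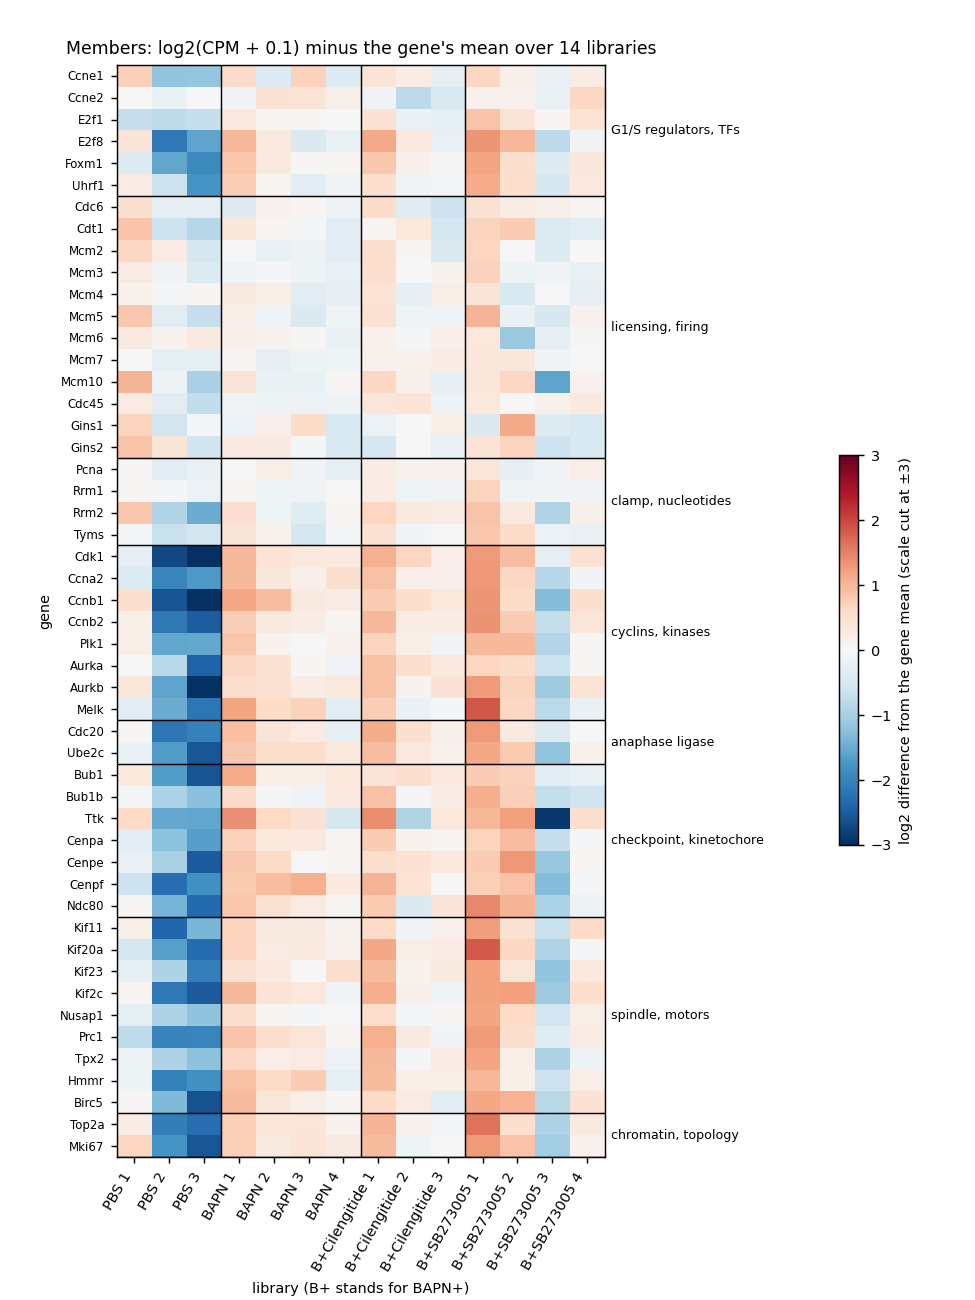
Each row is a member gene and each column a library. Colour gives log2(CPM + 0.1) minus the gene's own mean over the 14 libraries, cut at ±3. PBS replicates 2 and 3 are low across the 28 mitosis genes while PBS replicate 1 is not, and the 16 replication genes vary less.

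The library mean over the 28 mitosis genes separated PBS replicates 2 and 3 from the BAPN libraries. On the log2(CPM + 0.1) scale this mean was 1.86, 0.23 and -0.23 in PBS replicates 1 to 3, and 2.72, 2.30, 2.19 and 1.99 in BAPN replicates 1 to 4. It was 2.78, 2.05 and 2.04 with Cilengitide and 3.09, 2.62, 1.00 and 2.04 with SB273005. PBS did not overlap BAPN or Cilengitide, but SB273005 replicate 3 lay below PBS replicate 1. In each of the 4 groups the library numbered 1 had the highest mean. PBS replicate 1 exceeded the next PBS library by 1.64 log2 units, or 3.11-fold. In the same library the B and plasma cell markers were highest, and their part in its mitosis level was not tested.

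The corresponding mean over the 16 replication genes was 3.54, 2.86 and 2.64 in PBS, and 3.22, 3.10, 2.97 and 2.91 in BAPN. With Cilengitide it was 3.39, 3.13 and 3.03, and with SB273005 3.59, 3.24, 2.77 and 3.04. Here all groups overlapped PBS. PBS replicate 1 was again the highest PBS library, by 0.69 log2 units or 1.61-fold over the next. The 6 G1/S genes had means of 1.28 ± 0.69 (SD, n = 3) in PBS, 2.19 ± 0.27 (SD, n = 4) in BAPN, 2.1 ± 0.39 (SD, n = 3) with Cilengitide and 2.34 ± 0.50 (SD, n = 4) with SB273005. Single libraries carried much of the extremes. SB273005 replicate 1 was the highest library for 33 of 50 members, and PBS replicate 3 was the lowest for 30 and PBS replicate 2 for 13.

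**Figure D3:**
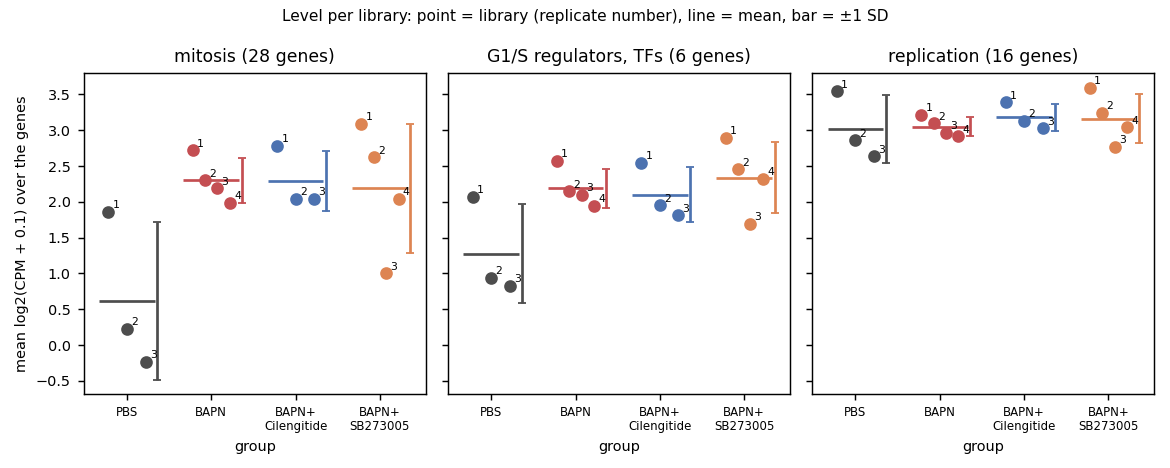
Mean log2(CPM + 0.1) over the genes of each class (y axis) by group (x axis), with 1 point per library, numbered by replicate, the group mean as a line and ±1 SD as a bar. The mitosis genes of PBS replicates 2 and 3 (0.23 and -0.23) lie below every library given BAPN, and the replication genes of all groups overlap.

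In BAPN against PBS, mitosis genes had the higher fitted level throughout, but no member passed the test. All 28 mitosis genes were above 0, with a median log2 difference of 1.40 (2.65-fold), against a median of -0.00 over all 20124 genes tested. Of the 16 replication genes 7 were above 0, with a median of -0.04, and all 16 differed by less than 0.5 log2 units. The edgeR quasi-likelihood test called 0 of 50 members at a Benjamini-Hochberg adjusted p under 0.05, where 0.114% of all genes were called (0.0944% higher). At an unadjusted p under 0.05 there were 22 members (all genes: 11.1%), 20 of them mitosis genes and none a replication gene. DESeq2 called 9 members, where it called 2.8% of all genes. In 14 members every BAPN library exceeded every PBS library, where 6.96% of all genes did, and 12 of the 14 were mitosis genes. Without PBS replicate 1 the median over members was 1.82 and 1 member was called, Cdk1, where 0.0199% of genes were.

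Cilengitide with BAPN gave 1 call against PBS, Prc1, and SB273005 with BAPN gave 3, E2f1, Foxm1 and Prc1, all higher. By the same edgeR test 3.21% of all genes were called with Cilengitide (2.32% higher) and 7.41% with SB273005 (4.47% higher), so the members' counts are near these shares. The median log2 difference over the 50 members was 1.12 with Cilengitide and 1.20 with SB273005, and that over all genes -0.03 and 0.01. All 28 mitosis genes were above 0 in each, with medians of 1.41 and 1.44. The 16 replication genes had medians of 0.05 and 0.18 and no call. Groups did not overlap for 20 members with Cilengitide (all genes: 14.6%) and for 2 with SB273005 (all genes: 9.4%), where replicate 3 lay low. The 3 comparisons with PBS share the same 3 PBS libraries, so their values are set side by side and are not independent.

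Of the single libraries left out, PBS replicate 1 moved these counts most. Cilengitide against PBS then had 16 members called (all genes: 2.24%, 1.79% higher), of which 15 were mitosis genes and the other was Foxm1. SB273005 against PBS then had 24 (all genes: 5.23%, 3.44% higher), of which 21 were mitosis genes and the others E2f1, E2f8 and Foxm1. No replication gene was called in either, with medians of 0.39 and 0.46 for licensing and 0.59 and 0.64 for clamp and nucleotide supply. Without SB273005 replicate 2, SB273005 against PBS had 2 G1/S genes, 1 mitosis gene and 0 replication genes called (all genes: 7.53%). The class medians were then 1.08, 1.43 and 0.23. SB273005 against PBS had 11 members called without SB273005 replicate 3 (all genes: 6.32%). Within the libraries with 0 H2-Ea counts, that is without SB273005 replicate 4, it had 5, namely Ccna2, E2f1, Foxm1, Kif20a and Prc1 (all genes: 8.52%), with a median of 1.29.

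**Figure D4:**
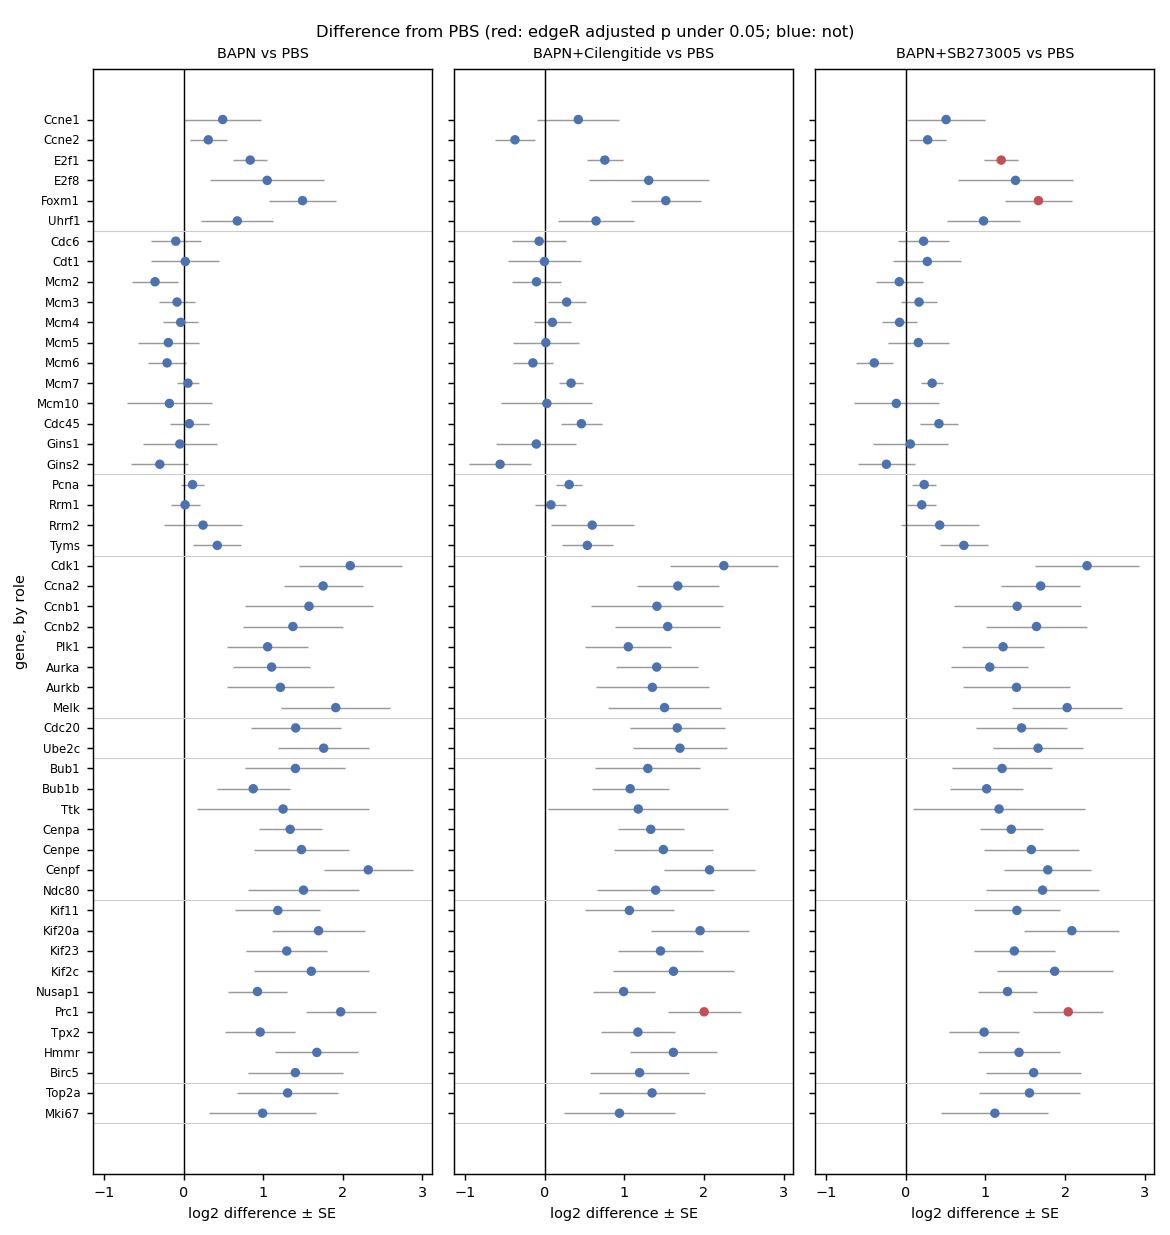
Log2 difference from PBS (x axis) with its standard error for each member (y axis, ordered by role) in the 3 groups given BAPN, red where the edgeR adjusted p was under 0.05. The 28 mitosis genes lie right of 0 in each panel, with medians of 1.40, 1.41 and 1.44, and the 16 replication genes lie around 0.

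Prc1, which bundles microtubules of the central spindle during cytokinesis, was the only member called in more than 1 comparison (mm10, chromosome 7, 80294450 to 80316259, plus strand). Its CPM were 4.99, 2.06 and 2.09 in PBS and 15.6, 12.3, 11 and 9.0 in BAPN. They were 18.2, 10.4 and 8.04 with Cilengitide and 21.0, 12.3, 6.61 and 10.2 with SB273005. Every library given BAPN lay above every PBS library. The log2 differences from PBS were 1.97 ± 0.44 (SE; edgeR adjusted p = 0.0801) in BAPN, 2.00 ± 0.46 (adjusted p = 0.0325) with Cilengitide and 2.04 ± 0.44 (adjusted p = 0.0168) with SB273005. The Cilengitide call ended without PBS replicate 2 (edgeR adjusted p = 0.124), PBS replicate 3 (0.104), Cilengitide replicate 1 (0.136) or replicate 2 (0.0758). It also ended with no filter (edgeR adjusted p = 0.0501), limma on log2(FPKM + 1) (0.0898) or only the groups compared in the fit (0.0616). With the H2-Ea split as a term the edgeR adjusted p was 0.272. There the split is told apart from Cilengitide against PBS only through the SB273005 group, so that fit cannot decide the call. The SB273005 call ended without PBS replicate 2 (edgeR adjusted p = 0.0826) or 3 (0.0680), or with only the groups compared (0.0883).

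Among the G1/S and transcription genes, E2f1, the activator of S-phase genes, was the most even within PBS (chromosome 2, 154559407 to 154569892, minus strand). Its CPM were 4.77, 4.49 and 4.72 in PBS and 9.39, 8.13, 8.03 and 7.73 in BAPN. They were 10.5, 6.67 and 6.40 with Cilengitide and 14.1, 10.1, 8.18 and 10.3 with SB273005. The groups did not overlap PBS in any of these comparisons, PBS replicate 1 included. The log2 difference was 0.84 ± 0.21 (SE; edgeR adjusted p = 0.121) in BAPN, 0.75 ± 0.22 (adjusted p = 0.0805) with Cilengitide and 1.20 ± 0.21 (adjusted p = 0.00805) with SB273005. This last call held when any 1 library was left out, with the adjusted p from 0.00508 to 0.0443.

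Foxm1, a transcription factor of G2 and mitosis genes, had similar differences from PBS in all groups given BAPN (chromosome 6, 128362967 to 128376146, plus strand). It was called only with SB273005. Foxm1 CPM were 5.93, 2.58 and 2.00 in PBS, 13.9, 9.49, 7.98 and 8.0 in BAPN, 13.5, 8.67 and 7.90 with Cilengitide, and 17.8, 10.9, 5.87 and 9.79 with SB273005. BAPN and Cilengitide libraries lay above all PBS libraries, and SB273005 replicate 3 lay just under PBS replicate 1. The log2 differences were 1.49 ± 0.42, 1.52 ± 0.44 and 1.66 ± 0.43 (SE; edgeR adjusted p = 0.169, 0.0774 and 0.0334). The SB273005 call ended without PBS replicate 2 (edgeR adjusted p = 0.134), PBS replicate 3 (0.113) or SB273005 replicate 1 (0.0751). It also ended with no filter (edgeR adjusted p = 0.0530), limma on log2(FPKM + 1) (0.0545) or only the groups compared (0.143). E2f8, a repressor in the E2F family, and Uhrf1, which recruits maintenance DNA methylation, had differences of 1.05 and 0.67 in BAPN, 1.31 and 0.65 with Cilengitide and 1.38 and 0.98 with SB273005, none called. The E-type cyclins Ccne1 and Ccne2 differed by 0.49 and 0.31 in BAPN, 0.42 and -0.37 with Cilengitide and 0.51 and 0.27 with SB273005, none called.

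Mki67, the proliferation antigen Ki-67 that coats mitotic chromosomes, shows how PBS replicate 1 sets the spread (chromosome 7, 135689784 to 135716361, minus strand). Its CPM were 15.2, 2.78 and 1.54 in PBS and 15.8, 11.6, 12.6 and 11.7 in BAPN. They were 18.7, 8.80 and 9.79 with Cilengitide and 23.6, 17.4, 4.68 and 10.6 with SB273005. PBS replicate 1 lay within the range of the BAPN libraries, and PBS replicates 2 and 3 lay below every other library. The log2 differences were 0.99 ± 0.67, 0.94 ± 0.70 and 1.12 ± 0.67 (SE; edgeR adjusted p = 0.682, 0.550 and 0.343). Without PBS replicate 1 they were 2.59 ± 0.58, 2.53 ± 0.59 and 2.71 ± 0.58 (SE; edgeR adjusted p = 0.107, 0.0472 and 0.0251).

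Top2a, the topoisomerase that untangles sister chromatids, followed Mki67 (chromosome 11, 98992943 to 99024189, minus strand). Its CPM were 14.5, 2.84 and 2.46 in PBS, 20.2, 15.8, 15.8 and 13.2 in BAPN, 25.2, 13.2 and 11.9 with Cilengitide, and 38.4, 17.6, 6.47 and 14.7 with SB273005. PBS replicate 1 again overlapped the other groups. The differences were 1.31 ± 0.63, 1.35 ± 0.67 and 1.55 ± 0.64 (SE; edgeR adjusted p = 0.483, 0.319 and 0.158).

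The mitotic cyclins and kinases were Cdk1, the master kinase of mitosis, its cyclin partners Ccna2, Ccnb1 and Ccnb2, and the kinases Plk1, Aurka, Aurkb and Melk. All 8 were above 0 in each comparison with PBS and none was called, with medians of 1.47, 1.46 and 1.52 in BAPN, Cilengitide and SB273005. Cdk1 CPM were 3.64, 0.605 and 0.366 in PBS, 8.94, 6.05, 5.64 and 5.50 in BAPN, 9.58, 7.06 and 5.21 with Cilengitide, and 11.1, 8.65, 3.63 and 6.26 with SB273005. Only SB273005 replicate 3 fell within the PBS range. The Cdk1 differences were 2.09 ± 0.65, 2.25 ± 0.67 and 2.28 ± 0.65 (SE; edgeR adjusted p = 0.212, 0.0865 and 0.0512), and without PBS replicate 1 they were 3.75, 3.91 and 3.93 (edgeR adjusted p = 0.0347, 0.0152 and 0.00604). Ccna2, the cyclin of S phase and early mitosis, had CPM of 6.88, 2.25 and 2.72 in PBS, 18.3, 11.7, 10.3 and 12.9 in BAPN, 17.1, 10.3 and 10.2 with Cilengitide, and 22.9, 14.3, 5.02 and 8.77 with SB273005. Its groups overlapped only through SB273005 replicate 3, and the differences were 1.75, 1.67 and 1.69 (edgeR adjusted p = 0.172, 0.0966 and 0.0553).

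Checkpoint and kinetochore genes behaved alike in direction. All 7 (Bub1, Bub1b, Ttk, Cenpa, Cenpe, Cenpf and Ndc80) were above 0 in the 3 comparisons with PBS, with medians of 1.40, 1.33 and 1.32, and none was called. Cenpf, a kinetochore protein, had the largest BAPN difference of all members, 2.32 ± 0.56 (SE; edgeR adjusted p = 0.103). Its CPM were 1.46, 0.388 and 0.580 in PBS, 4.02, 4.42, 4.87 and 2.83 in BAPN, 4.77, 3.09 and 2.32 with Cilengitide, and 3.80, 4.23, 0.867 and 2.21 with SB273005. Cenpa, the centromeric histone, had CPM of 5.66, 2.93 and 2.17 in PBS, 11.4, 8.84, 8.65 and 7.37 in BAPN, 12, 7.61 and 7.49 with Cilengitide, and 11.3, 13.4, 4.35 and 6.79 with SB273005. Both genes were above all PBS libraries in every BAPN and Cilengitide library.

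The 9 genes of the spindle, motors and cytokinesis were all above 0, with medians of 1.40, 1.45 and 1.42, and Prc1 was the only call among them. Kif20a, a kinesin of the central spindle, had CPM of 3.34, 1.49 and 0.901 in PBS, 7.74, 5.77, 5.89 and 5.31 in BAPN, 10.9, 5.46 and 5.76 with Cilengitide, and 17.6, 7.5, 2.56 and 4.72 with SB273005. Its differences were 1.70, 1.95 and 2.08 (edgeR adjusted p = 0.274, 0.104 and 0.0512), and its SB273005 libraries spread widely, at 8.09 ± 6.64 CPM (SD, n = 4). The other members here, Kif11, Kif23, Kif2c, Nusap1, Tpx2, Hmmr and Birc5, had differences from 0.93 to 1.67 in BAPN. Of the anaphase ubiquitin ligase, Cdc20 and the E2 enzyme Ube2c had differences of 1.41 and 1.76 in BAPN, 1.66 and 1.70 with Cilengitide, and 1.45 and 1.66 with SB273005, none called. Cdc20 CPM were 6.00, 1.20 and 1.34 in PBS, 10.9, 7.61, 6.85 and 4.73 in BAPN, 12.5, 8.06 and 6.40 with Cilengitide, and 14, 6.99, 4.33 and 5.76 with SB273005. PBS replicate 1 overlapped BAPN and SB273005 for Cdc20.

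No replication gene passed the test in any comparison. Mcm6 (chromosome 1, 128331590 to 128359664, minus strand) had CPM of 81.5, 73.3 and 82.6 in PBS, 74.3, 72.5, 68.5 and 59.1 in BAPN, 74.2, 65.4 and 74.6 with Cilengitide, and 84.4, 30.9, 56.5 and 68.7 with SB273005. The low value, 30.9, is SB273005 replicate 2, the library with the lowest smooth muscle markers and the highest mitochondrial share, and their part in it was not tested. The differences were -0.21 ± 0.24, -0.15 ± 0.25 and -0.40 ± 0.23 (SE; edgeR adjusted p = 0.864, 0.833 and 0.337). For BAPN the 95% interval ran from -0.73 to 0.32. Pcna (chromosome 2, 132249162 to 132253314, minus strand) had CPM of 38.0, 29.7 and 32.1 in PBS, 36.6, 42.3, 34.6 and 30.4 in BAPN, 43.1, 40.1 and 40.3 with Cilengitide, and 47.4, 31.3, 35.1 and 42.4 with SB273005. Cilengitide libraries lay above PBS and the others overlapped. The Pcna differences were 0.11 ± 0.15, 0.31 ± 0.16 and 0.23 ± 0.15 (SE; edgeR adjusted p = 0.889, 0.346 and 0.390), with a BAPN interval from -0.22 to 0.45.

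The rest of the licensing and firing genes, Cdc6, Cdt1, Mcm2, Mcm3, Mcm4, Mcm5, Mcm7, Mcm10, Cdc45, Gins1 and Gins2, had BAPN differences from -0.36 to 0.07, none called. Mcm7, another helicase subunit, had CPM of 19.4, 15.8 and 15.7 in PBS, 19.8, 16.2, 17.2 and 17.4 in BAPN, 20.9, 20.8 and 22.4 with Cilengitide, and 24.3, 24.4, 17.7 and 19.0 with SB273005. Its differences from PBS were 0.06 ± 0.14, 0.33 ± 0.15 and 0.33 ± 0.14 (SE; edgeR adjusted p = 0.956, 0.254 and 0.163). For nucleotide supply, the ribonucleotide reductase subunits Rrm1 and Rrm2 and the thymidylate synthase Tyms differed by 0.02, 0.25 and 0.42 in BAPN, by 0.08, 0.60 and 0.54 with Cilengitide and by 0.20, 0.42 and 0.73 with SB273005, none called.

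**Figure D5:**
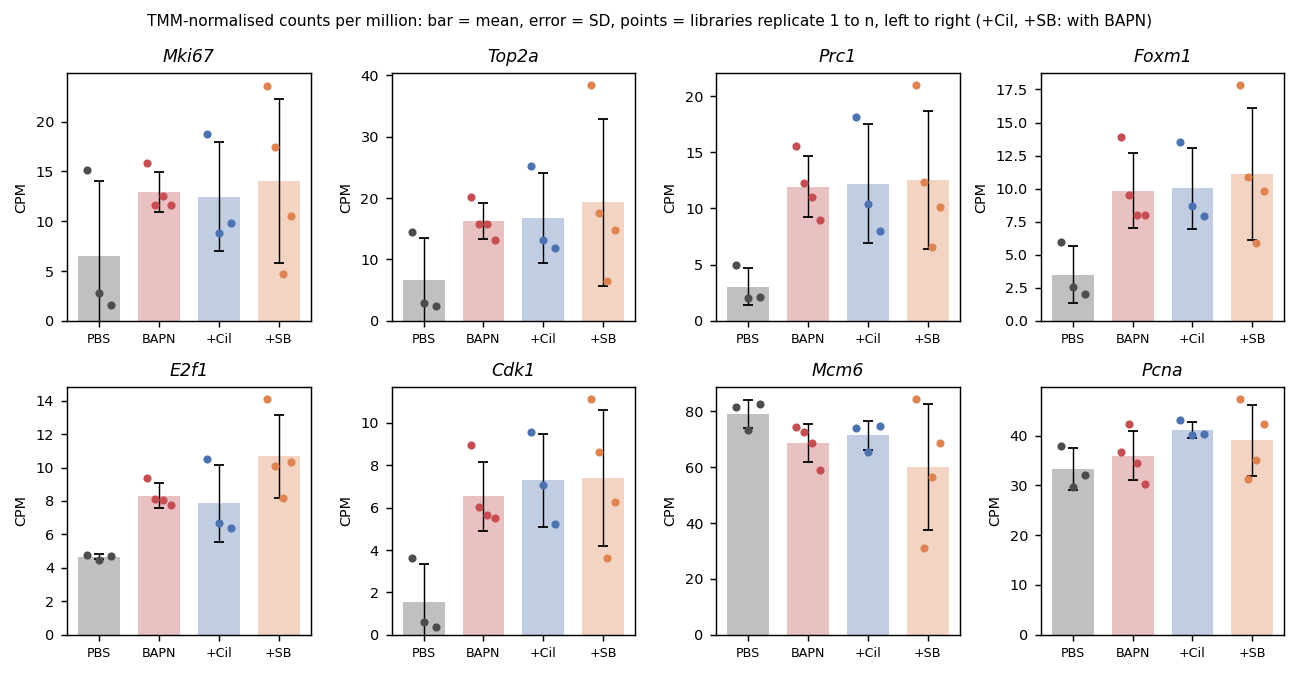
CPM (y axis) of single members by group (x axis), with the mean as a bar, the SD as an error bar cut at 0, and 1 point per library. Prc1 and E2f1 in PBS lie below every library given BAPN, PBS replicate 1 of Mki67 (15.2) and Top2a (14.5) overlaps the other groups, and Mcm6 and Pcna overlap between PBS and BAPN.

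Markers of some other cells moved in the same comparisons. Over all genes, 0.0944%, 2.32% and 4.47% were called higher than PBS in BAPN, Cilengitide and SB273005. With SB273005, 592 of 20124 genes were called lower. The 10 macrophage markers summed to 290 to 460 CPM in PBS, 572 to 1305 in BAPN, 892 to 1729 with Cilengitide and 897 to 1819 with SB273005, and 1, 9 and 10 of the 10 were called higher than PBS. The 6 fibroblast markers summed to 3839 to 4970 CPM in PBS and 5972 to 13135 in the other groups. The 6 smooth muscle markers summed to 24690 to 32153 CPM in PBS and 3434 to 20389 with SB273005, against 19755 to 30449 in BAPN and 17315 to 23326 with Cilengitide, so both inhibitor groups lay wholly below PBS. Of these 6 markers 0, 0 and 2 were called lower, and of the fibroblast markers 0, 1 and 2 higher. Of 5 neutrophil markers 0, 2 and 3 were called higher and 1 lower with SB273005, and their sum was 6.19 to 7.54 CPM in PBS and 6.97 to 19.3 elsewhere. Of 4 kidney tubule markers 0, 2 and 1 were called higher, with sums of 269 to 299 CPM in PBS and 261 to 377 elsewhere. These sums hide the H2-Ea split. Umod was 24.6 to 35.2 CPM in libraries with 0 H2-Ea counts and 59.2 to 78.5 in the rest, SB273005 replicate 4 included. Slc12a1 was 5.63 to 8.49 and 10.3 to 14.3 CPM. Kap went the other way, at 174 to 246 and 122 to 170 CPM, and Slc34a1 overlapped. For these markers the split and the group cannot be told apart in BAPN or Cilengitide against PBS. No endothelial, T cell, B and plasma cell, erythroid, cardiomyocyte or brown adipocyte marker was called against PBS. The cardiomyocyte marker Myh6 still followed the H2-Ea split, at 148 to 346 CPM in libraries with 0 H2-Ea counts and 5.39 to 79.2 in the rest. The other cardiomyocyte markers, Actc1, Nppa, Ryr2 and Tnnt2, overlapped between these sets. The part of any of these cells in the mitosis genes was not tested.

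No member passed the test between an inhibitor and BAPN alone, or between the inhibitors. Cilengitide against BAPN had 0 members called by edgeR (all genes: 0%), 1 at an unadjusted p under 0.05 (all genes: 5.17%) and a median log2 difference of 0.03 over members. SB273005 against BAPN had 0 called (all genes: 0.00497%), 1 at an unadjusted p under 0.05 (all genes: 12.4%) and a median of 0.15. SB273005 against Cilengitide had 0 called (all genes: 0%), 1 at an unadjusted p under 0.05 (all genes: 7.55%) and a median of 0.05. With the H2-Ea split as a term in the fit, the 2 medians with SB273005 turned to -0.14 and -0.23. Only SB273005 replicate 4 shares a side of the split with BAPN and Cilengitide, so both values rest on that 1 library. DESeq2 also called 0 members in each comparison. Doses are not given, so the inhibitors are not known to be matched. The intervals are wide. For Mki67 the 95% interval of the difference from BAPN ran from -1.50 to 1.39 with Cilengitide and from -1.21 to 1.46 with SB273005, and for Cdk1 from -1.17 to 1.48 and from -1.05 to 1.41. Replication genes had narrower ones, for Pcna from -0.14 to 0.53 and from -0.19 to 0.43.

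The members with the smallest p in these comparisons were from G1/S and replication. Ccne2, a cyclin that drives entry into S phase, had CPM of 3.67, 5.40, 5.21 and 4.52 in BAPN, 3.66, 2.26 and 2.85 with Cilengitide, and 4.38, 4.33, 3.47 and 6.14 with SB273005. Cilengitide libraries lay just below all BAPN libraries, with a difference of -0.68 ± 0.24 (SE; edgeR adjusted p = 0.921), and SB273005 exceeded Cilengitide by 0.65 ± 0.24 (adjusted p = 0.629). Mcm7 differed from BAPN by 0.28 ± 0.14 with Cilengitide and 0.27 ± 0.13 with SB273005 (SE; edgeR adjusted p = 0.921 and 0.400). Mcm3 differed by 0.36 ± 0.22 and 0.25 ± 0.21, and Cdc45, part of the active helicase, by 0.39 ± 0.24 and 0.34 ± 0.22. E2f1 differed by -0.08 ± 0.21 and 0.36 ± 0.19. Cdc6, which loads the helicase, differed between the inhibitors by 0.29 ± 0.32, and Mcm6 by -0.25 ± 0.24. Groups did not overlap in 3 members for Cilengitide against BAPN (Mcm3 and Mcm7 higher, all genes 4.09%; Ccne2 lower, all genes 4.8%) and in 1 for SB273005 (Cdc45 higher, all genes 2.34%).

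Other cell cycle genes, which are not members, were read from 4 further lists. Of 48 other mitosis genes 0, 2 and 8 were called higher than PBS in BAPN, Cilengitide and SB273005, none lower, with medians of 1.17, 1.20 and 1.43, where 0.0944%, 2.32% and 4.47% of all genes were called higher. Iqgap3 and Pimreg were called in the last 2 comparisons. Iqgap3, a scaffold protein linked to proliferation, had CPM of 1.76, 1.29 and 0.427 in PBS and 2.64 to 13.0 in the other libraries, which did not overlap PBS, with differences of 2.56, 2.69 and 2.45 (edgeR adjusted p = 0.0766, 0.0234 and 0.0180). Of 29 other replication genes 0, 0 and 2 were called, with medians of 0.08, -0.01 and 0.36. The called genes were Dut, which removes dUTP, with 1.03 ± 0.23 (SE; edgeR adjusted p = 0.0188), and Dbf4, the activator of the Cdc7 kinase, with 1.28 ± 0.33 (adjusted p = 0.0346). Without PBS replicate 1 the other mitosis genes had 8 and 20 calls with Cilengitide and SB273005 (all genes: 1.79% and 3.44% higher), and without PBS replicate 2 or 3 they had 0 and 0. The other replication genes then had 0 and 3, and 0 and 0.

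Calls among the brakes of the cycle were few, and near the share over all genes. Of 25 cell cycle brakes 0, 1 and 2 were called higher, with medians of -0.00, -0.02 and 0.00, where 0.0944%, 2.32% and 4.47% of all genes were. Cdkn1a, the p53 target p21 that inhibits cyclin-dependent kinases, had CPM of 39.9, 43.0 and 41.3 in PBS, 58.4 to 88.6 in BAPN, 66.7 to 110.7 with Cilengitide and 72.1 to 125.9 with SB273005, with no overlap with PBS. Its differences were 0.78 ± 0.22, 1.01 ± 0.24 and 1.34 ± 0.23 (SE; edgeR adjusted p = 0.178, 0.0381 and 0.00716). Cdkn2b, an inhibitor of Cdk4 and Cdk6, rose with SB273005 by 1.40 ± 0.37 (SE; edgeR adjusted p = 0.0383). Of 13 G1 entry genes 0, 2 and 2 were called higher, both times Ccnd1, the cyclin D1 partner of Cdk4 and Cdk6, and Cdk6 itself. Ccnd1 differences were 0.83 ± 0.38, 1.70 ± 0.41 and 1.65 ± 0.39 (SE; edgeR adjusted p = 0.441, 0.0402 and 0.0251), and its CPM were 19.5 to 26.0 in PBS, 34.3 to 47.0 in BAPN, 50.4 to 108.4 with Cilengitide and 42.5 to 135.7 with SB273005. The Ccnd1 and Cdkn1a calls with Cilengitide ended without PBS replicate 1, 2 or 3 or Cilengitide replicate 1. With SB273005 the Cdkn1a call held without each of these, while that of Ccnd1 ended without PBS replicate 1, 2 or 3.

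Member counts lay mostly on protein-coding transcripts. The deposited transcript table held 232 transcripts of the members. The leading transcript was protein coding for all 50, and 96.3% of member counts were on protein-coding transcripts and 2.01% on transcripts with a retained intron. In 31 members 1 transcript held over 90% of the counts, while in Prc1 the leading transcript held 34.9%.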

How the data were processed

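RNA from ascending aorta was measured in 14 libraries in 4 groups, taken from the labels' treatment. The submitters' processing notes name HISAT2 2.2.1, StringTie 2.1.6 and the build mm10. The sources used here give neither the annotation release nor whether counting used the strand, and genes that overlap or have near-identical copies are therefore uncertain. The deposited estimated counts, whole numbers that the authors derived per gene, were used for the tests. The deposited FPKM, scaled by the authors to transcript length and library size, were used for levels between genes.

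Genes were filtered with filterByExpr (minimum count 10), because many members lie near 1 FPKM, which left 20124 genes and all 50 members. All 14 libraries entered 1 edgeR 4.0.16 quasi-likelihood fit (TMM, R 4.3.3), with Benjamini-Hochberg adjustment over all genes tested and a threshold of 0.05. CPM are TMM-normalised. Class levels add 0.1 CPM before the log2. The SE and 95% intervals were worked back from the F statistic and are approximate. Alternatives used DESeq2 1.42.0 and limma 3.58.1. The pipeline was tested on simulated counts. Replicates differed by more than sampling noise in all 18 pairs within groups (smallest chi-square over its degrees of freedom 41.7), so each library counted as 1 sample.

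Members and lists were chosen with earlier results of these data known. The 3 classes, the motifs and the promoters shown were chosen after values were seen. Named genes were Mki67, Top2a, the member of each role with the highest mean count, up to 4 members per comparison by smallest p, and up to 3 genes per further list and comparison. Cdk1, the genes listed by role and those named as calls were added after their values were seen. Coordinates are those of the deposited table (mm10). Promoters are RefSeq's, on GRCm38.p6.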

Additional observations from a re-analysis of the deposited data

Results flagged for a closer look

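Mcm3, a subunit of the replicative helicase, had 25 CPM in SB273005 replicate 1, against 13.2 to 14.6 CPM in the other 3 libraries of that group. The gap of this library to the next was 0.883 of the group's range, above Dixon's 95% critical value for 4 samples. It was the only such value when 21 measures were each checked in both of the 2 groups of 4 libraries. Chance alone gives about 1 in 20, so 1 such value is no more than chance would give. The same library was the highest of all 14 for 33 of the 50 members.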

How the results depend on the processing

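The number of members called depended on the choices made, while their median difference from PBS stayed above 0 in every alternative run. DESeq2 called 9, 11 and 20 members in BAPN, Cilengitide and SB273005 against PBS, in place of 0, 1 and 3 by edgeR. Its calls over all genes were 564, 1753 and 2916 (2.8%, 8.71% and 14.5%). With no filter Cilengitide had 0 members called (all genes: 1.3%). With a filter of 1 FPKM in 3 libraries SB273005 had 8 (13.2%). Limma on log2(FPKM + 1) gave Cilengitide 0 calls (2.68%) and compressed the medians to 0.33, 0.34 and 0.36, where most members lie near or under that pseudocount, and limma on log2(FPKM + 0.1) gave Cilengitide 2 calls (3.48%). With the H2-Ea library set as a term Cilengitide had 0 and SB273005 had 5 (0.0398% and 8.53%). That term can be told apart from Cilengitide against PBS only through the SB273005 group. For SB273005 against PBS it nearly repeats the fit without SB273005 replicate 4. With only the groups compared in the fit, Cilengitide had 0 and SB273005 had 1 (4.77% and 1.86%). The cause of these shifts was not tested.

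Leaving out 1 library at a time gave 0 to 1 members called in BAPN, 0 to 16 with Cilengitide and 1 to 24 with SB273005 against PBS. Cilengitide had 0 without PBS replicate 2 or 3 or Cilengitide replicate 1 or 2, where 0.452%, 1.39%, 0.646% and 0.889% of all genes were called, and 2 without SB273005 replicate 1 or 3 (3.84% and 3.01%). SB273005 had 1 without PBS replicate 2 or 3 (1.59% and 3.83%). Calls over all genes fell too without PBS replicate 2 or 3. The highest counts came without PBS replicate 1. Medians ran from 0.75 to 1.82, 0.81 to 1.94 and 0.84 to 1.84. The inhibitor comparisons kept 0 calls, with medians from -0.14 to 0.19 for Cilengitide against BAPN, -0.12 to 0.36 for SB273005 against BAPN and -0.23 to 0.31 between the inhibitors. A group left with 2 libraries was assumed to vary like the others.

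Replicate numbers were used as a block in 1 alternative, which called 9, 16 and 22 members against PBS (all genes: 0.726%, 4.78% and 8.66%), with medians of 1.42, 1.36 and 1.34, and 0 in the other comparisons. The labels do not say whether same-numbered libraries were paired or processed together, so the numbers were not treated as pairs elsewhere. Correlations of same-numbered libraries ran from -0.15 to 0.20 over 19 pairs, with 8 above 0.1. For Cilengitide and SB273005 all 3 pairs were above 0.1 (0.112 to 0.197), and the block left that comparison at 0 calls. In all, 9 of 14 libraries correlated best with their own number, which is a hint from the data only. Members with low counts, down to 0 for Ttk, limit the precision of single genes.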
